A study of Mus musculus with 3 samples.

Results

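A set of 10 genes that tell macrophage populations apart was followed through a cycle of culture on and off plastic in cells prepared as cardiac myofibroblasts. Of the 10, 8 were among the 15393 genes with at least 1 probe well above background on these arrays, and 2 had a probe that never rose above it. The group holds the resident markers Lyve1, Folr2 and Timd4, the recruitment marker Ccr2, the scavenging genes Cd163, Mrc1, Cd5l and Trem2, and a pair of tissue-macrophage surface receptors, Cx3cr1 and Fcrls. It was chosen by name with earlier values of these arrays known, and Cx3cr1, Fcrls and Cd5l were selected on their measured pattern over the 3 arrays, so all values of the members are a description and carry no test.

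Macrophages of the heart descend partly from cells seeded before birth, which renew themselves in place, and partly from blood monocytes that enter through the chemokine receptor Ccr2, above all after infarction. Resident cells are usually recognised by Lyve1, a hyaluronan receptor, Folr2, a folate receptor, and Timd4, a receptor for phosphatidylserine on dying cells. Scavenging receptors such as Cd163 and Mrc1 take up haemoglobin complexes and glycoproteins, whereas Cx3cr1 and Fcrls are best known from macrophages settled in tissues, microglia included.

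The study asked which genes follow the loss and return of myofibroblast identity when contact with a stiff surface is removed and restored. All 3 groups came from the hearts of male C57BL/6J mice, taken 3 days after infarction by permanent tying of the left anterior descending artery (the labels give the age as 8 weeks in one field and 10 weeks in another), and no genetic change is labelled. After digestion and overnight attachment to plastic, the cells were passed over a magnetic column and the CD45-negative fraction was taken as myofibroblasts; CD45 is the leukocyte surface protein encoded by Ptprc, which macrophages carry. Adherent cells were grown on plastic, non-adherent cells were moved from plastic into suspension, and re-adherent cells were put back on plastic after suspension. Each group was 1 RNA pool of several hearts on 1 array, so there was no spread between biological replicates, and longer culture cannot be told apart from the change of state, since the states followed one another.

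Between 53.9% and 59.9% of the 59305 non-control spots of an array were well above background, none was saturated, and all arrays shared a slide and a scan. Signals below are Agilent processed signals, an intensity in arbitrary units, and each difference is the log2 signal after division by the array's 75th percentile (651, 697 and 541 units in adherent, non-adherent and re-adherent cells). The technical error of a difference, from the errors that the scanner software assigned to both spots, had a median of 0.20 over all genes, and ± below means this error and not a spread between samples. Signals of different probes are not comparable, so each gene is followed on its own probe, and a signal summed over a list of genes leans on the brightest probes of that list.

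The labelled cell type was present: Acta2, the smooth-muscle actin of myofibroblasts, gave 448942 units in adherent, 4765 in non-adherent and 344891 in re-adherent cells. Macrophage genes were also present on every array, although the cells were described as CD45-negative. Ptprc itself gave 355, 2441 and 532 units in the same order. All 16 genes of a pan-macrophage list were well above background on all 3 arrays, and their summed scaled signal, with the 75th percentile set to 100, was 20047, 128175 and 45341. Their median log2 difference was 2.90 between non-adherent and adherent cells, -1.66 between re-adherent and non-adherent cells and 1.17 between re-adherent and adherent cells, against -0.07, 0.08 and 0.06 over all genes. In a bulk sample, fewer cells of a type and less RNA per cell cannot be told apart, and the part of macrophage abundance in each difference below was not tested.

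Of the 10 markers, 6 were well above background on all arrays, 2 on the non-adherent array alone (Lyve1 and Ccr2) and 2 on none (Timd4 and Cd163). Into suspension, the 6 markers measured on all arrays were over 4-fold higher in non-adherent than in adherent cells, where 7.61% of all genes were, and 0 were over 4-fold lower, where 5.34% of all genes were. Lyve1 and Ccr2 also passed the line by their measured values, which makes 8, but they entered only through the non-adherent array, and for Ccr2 the bound was at least 3.07-fold. From non-adherent to re-adherent cells 2 of the 6 were over 4-fold lower (4 with Lyve1 and Ccr2), beside 6.05% of all genes, and 0 were over 4-fold higher, beside 5.7%. In re-adherent against adherent cells 2 were over 4-fold higher, beside 1.36% of all genes, and 0 were over 4-fold lower, beside 1.29%. The median log2 difference of the 6 was 3.60 into suspension (from 2.67 to 6.52), -1.83 on return (from -4.54 to 1.95) and 1.82 over the cycle (from 0.30 to 4.62). The markers, and the gene lists set beside them, were chosen with these contrasts known, so nothing is read from their counts. The same shares of all genes stand beside the counts of those lists. The 3 differences share arrays and are not independent of each other.

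**Figure D1:**
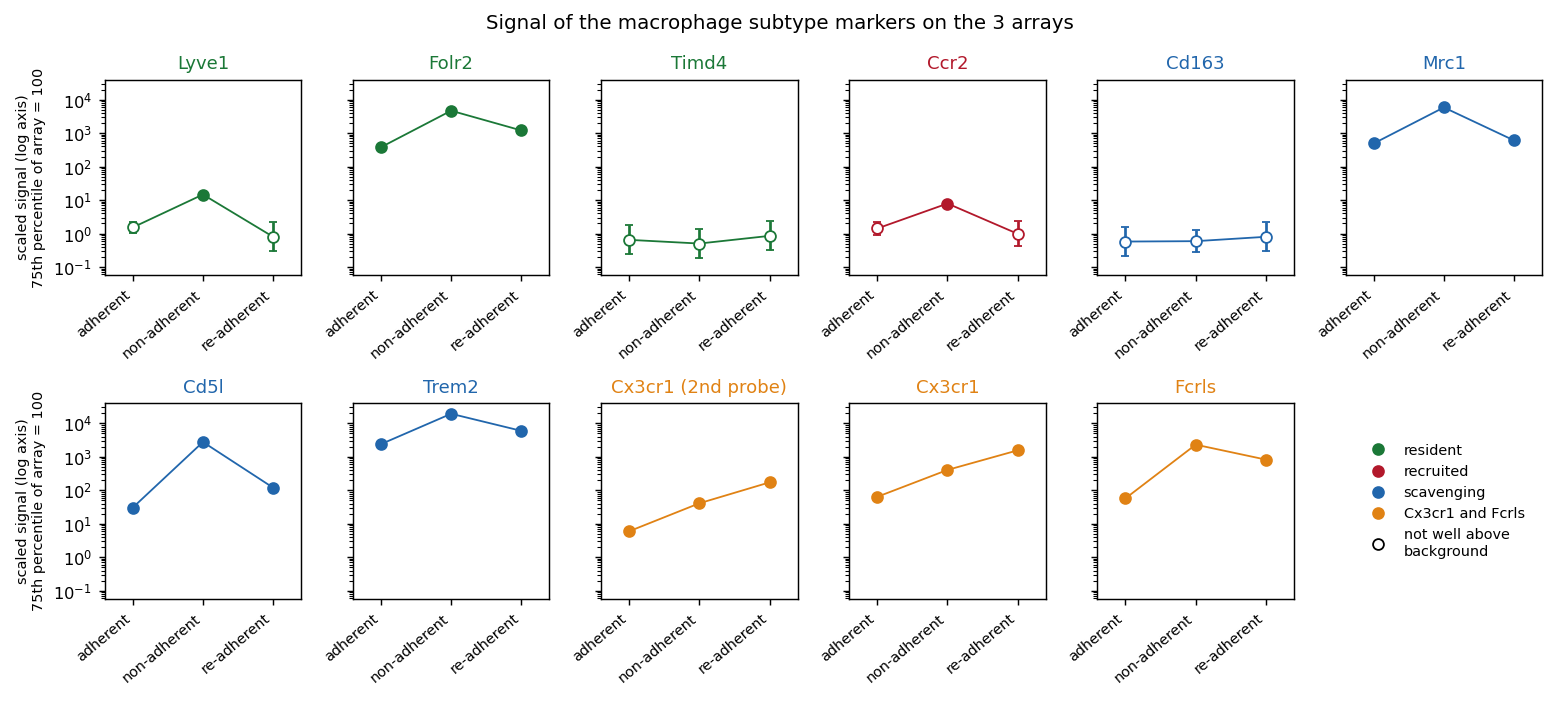
Signal of each marker probe on the 3 arrays (adherent, non-adherent, re-adherent), scaled so that the array's 75th percentile is 100 (log axis). Bars are the technical error of the spot on the log scale, often smaller than the point, and open points were not well above background. Most markers peak in suspension, while both Cx3cr1 probes are highest in re-adherent cells; levels are to be read within a panel and not between panels.

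The resident markers differed in detection, with Folr2 measured on all arrays, Lyve1 in suspension alone and Timd4 on none. Folr2 (NM_008035, chromosome 7) gave 2469.9 units in adherent, 32687 in non-adherent and 6522 in re-adherent cells. It was thus highest in suspension and stayed above its first level once the cells were back on plastic. The log2 difference was 3.63 ± 0.20 into suspension (12.4-fold), -1.96 ± 0.20 on return to plastic (3.89-fold lower) and 1.67 ± 0.20 over the whole cycle (3.17-fold).

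Lyve1 (NM_053247, chromosome 7) gave 9.89 units in adherent, 102 in non-adherent and 4.31 in re-adherent cells, and only the suspension value was well above background. It was therefore at least 5.70-fold higher in non-adherent than in adherent cells and at least 4.33-fold higher than in re-adherent cells. No order can be given between the plated states.

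Lyve1 is also a gene of lymphatic and some other endothelial cells, so their markers were set beside it. Of the 6 lymphatic genes 5 had a probe; Prox1, the factor that defines lymphatic endothelium, and Reln were not well above background on any array. Flt4 was measured in re-adherent cells alone, at 23.1 units, and Mmrn1 in non-adherent cells alone, at 22.7 units. Pdpn, which fibroblasts also express, ran the other way, from 39482 units in adherent to 15006 in non-adherent and 52001 in re-adherent cells, and with it nearly the whole of the list's summed scaled signal, which was 6069, 2160 and 9612. Blood endothelial genes moved with Lyve1 in part, since 3 of 8 were over 4-fold higher in suspension than in adherent cells (median 1.18) and 5 of 8 were over 4-fold lower on return (median -2.67). Over the cycle 3 were over 4-fold lower by measured values (median -1.77, or -1.19 with dim signals raised to the detection floor). Among them, the bound for Tie1 was only 1.71-fold, since its re-adherent signal was not well above background. Cdh5, the cadherin of endothelial junctions, gave 289, 2381 and 26.6 units in adherent, non-adherent and re-adherent cells. The summed scaled signal of the list was 2333, 3539 and 2219, but it leans on the bright probe of Kdr (-0.35 into suspension and 0.74 on return), whose other probe ran the opposite way (1.96 and -3.18); their part in the Lyve1 signal was not tested.

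Timd4 (NM_178759, chromosome 11) gave 4.22, 3.50 and 4.61 units in adherent, non-adherent and re-adherent cells. All values lay below the lowest signal called well above background on the same array, which was 16.7, 14.0 and 18.3 units. The third resident marker was thus not detectable, in suspension or on plastic.

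Other genes known from resident heart macrophages were set beside these markers. Of 14 on the list, all were measured. In non-adherent against adherent cells 13 were over 4-fold higher (median 3.18), beside 7.61% of all genes. On return to plastic 13 were over 4-fold lower (median -2.99), beside 6.05% of all genes, though the bound for Ccl24 was 3.36-fold. Against the first adherent cells 8 were higher and 6 lower by measured values. Ccl24 and Slco2b1 are among them but were well above background in suspension alone, so they have no order between plated states. The median was 0.35 and became -0.09 when arrays were scaled to the spike-in probes. Cbr2, a carbonyl reductase, differed by 4.35 into suspension and by -4.15 on return. Vsig4, a complement receptor, differed by 3.44 and -3.68, and F13a1, the coagulation factor XIII A chain, by 2.89 and -3.78. Ccl8, a chemokine, gave 1117, 7239 and 189 units and ended at a log2 difference of -2.30 from its first level, whereas Fcna, a ficolin lectin, gave 92.4, 3512 and 318 units and ended at 2.05.

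Ccr2, the receptor that brings monocytes out of marrow and into tissue, was scarcely detectable. Its probe (NM_009915, chromosome 9) gave 9.22 units in adherent, 55.0 in non-adherent and 5.31 in re-adherent cells, and again the suspension value alone was well above background. By processed signal this bounds it as at least 3.07-fold higher in non-adherent than in adherent cells and at least 2.33-fold higher than in re-adherent cells. With normexp correction its log2 differences were only 0.64 into suspension and -0.45 on return, below these bounds. That setting adds an offset of 50 to every signal, which by itself shrinks a difference between signals this dim. It therefore cannot judge the bounds. Its place over 4-fold rests on a dim signal. Its log2 difference from adherent to re-adherent cells was -0.53 ± 1.40, within the error.

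The ligands of Ccr2 come from many cells, fibroblasts included. Ccl2 gave 25798, 55519 and 19619 units in adherent, non-adherent and re-adherent cells, log2 differences of 0.99 into suspension and -1.09 on return. Ccl12 differed by 2.37 and -0.91. Ccl7 differed by -0.08 into suspension, positive without scaling, after quantile normalization and in the deposited table, and by -0.49 on return.

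Genes of recruited monocytes were mixed when each was read on its brightest probe. Of 14 on the list 13 were measured, of which 6 were over 4-fold higher and 1 over 4-fold lower in non-adherent than in adherent cells (median 1.57, or 0.82 with dim signals raised to the detection floor). On return 1 was over 4-fold higher and 4 lower (median -0.96). For F10 the brightest probe gave 0.51 into suspension and -0.96 on return and its other probe 2.76 and -4.02, and for Ms4a4c the brightest gave 0.82 and -0.70 and the others 1.95 and 2.92 into suspension and -3.36 and -2.33 on return, so the choice of probe bears on this count. In all, 10 of the 13 were higher and 3 lower in non-adherent than in adherent cells, though Itgal turned lower with spike-in scaling. Among the higher, Lyz2 differed by 2.60 into suspension and -2.32 on return, Cd52 by 2.67 and -1.20 and Itga4 by 2.43 and -1.05. Chil3, a chitinase-like protein of inflammatory monocytes, gave 265, 115 and 116 units. Plac8, a small protein of monocytes and other cells, ran against the macrophage genes with 37103, 2193 and 29994 units, and its other probe did the same (-4.33 and 4.19). Spn, which encodes CD43 of patrolling monocytes, gave 117, 946 and 643 units and stood 2.73 log2 units higher at the end than at the start (1.92 on its other probe, not well above background in adherent cells).

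**Figure D2:**
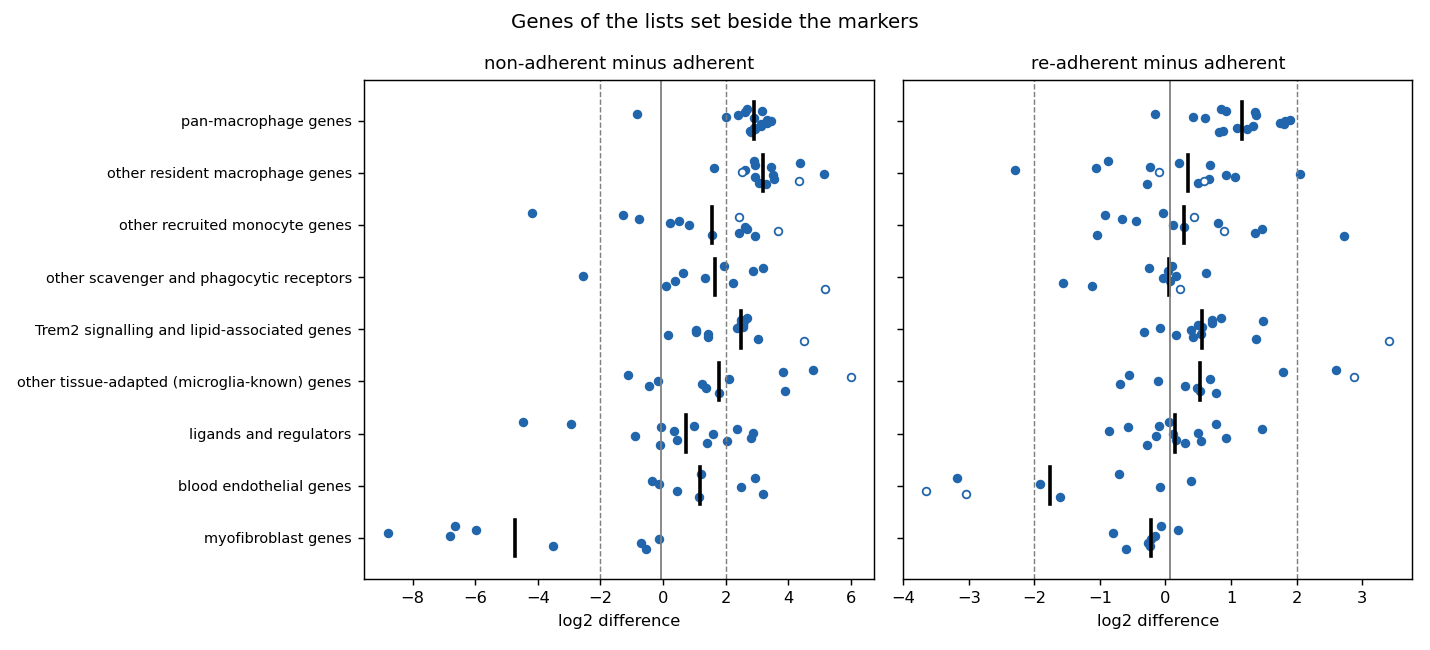
Log2 difference of each measured gene of the comparison lists, non-adherent minus adherent (left) and re-adherent minus adherent (right). Black bars are list medians, dashed lines mark 4-fold, the grey line is the median of all genes and open points were not well above background on at least 1 of the arrays compared; macrophage lists lie to the right on suspension and myofibroblast genes to the left.

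Among the scavenging genes, Mrc1 and Cd5l were far higher in suspension than in either plated state, Trem2 differed less, and Cd163 was not detectable. Mrc1 (NM_008625, chromosome 2), the mannose receptor CD206, gave 3196 units in adherent, 40929.7 in non-adherent and 3276 in re-adherent cells. The log2 difference was 3.58 ± 0.20 into suspension (12.0-fold) and -3.28 ± 0.20 on return (9.71-fold lower). Its plated levels were close, with a log2 difference of 0.30 ± 0.20 that became -0.13 when arrays were scaled to the spike-in probes.

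Cd5l (NM_009690, chromosome 3) encodes a secreted protein of macrophages, also called AIM, that binds lipids and debris. It gave 197 units in adherent, 19374 in non-adherent and 647 in re-adherent cells, the widest swing among the 8 measured markers. The log2 difference was 6.52 ± 0.21 into suspension (91.8-fold), -4.54 ± 0.20 on return (23.3-fold lower) and 1.98 ± 0.21 over the cycle (3.95-fold, just under the 4-fold line).

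Trem2 (NM_031254, chromosome 17), a receptor for lipids and lipoproteins on phagocytes, gave 15588 units in adherent, 135197 in non-adherent and 32403 in re-adherent cells. The log2 difference was 3.02 ± 0.20 into suspension (8.10-fold), -1.70 ± 0.20 on return (3.24-fold lower) and 1.32 ± 0.20 over the cycle (2.50-fold). These lay within 0.15 of the pan-macrophage median in all 3 comparisons. Cd163 (NM_053094, chromosome 6), the haemoglobin scavenger receptor, gave 3.75, 4.12 and 4.33 units, below the lowest signal called well above background on each array.

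Trem2 signals through Tyrobp, the adaptor also known as DAP12, which gave 19705, 136022 and 29456 units. The kinase Syk differed by 2.50 into suspension and -1.78 on return, and the phospholipase Plcg2 by 2.59 and -1.10. Of the 14 genes of Trem2 signalling and lipid-associated macrophages, all were higher in non-adherent than in adherent cells, 9 of them over 4-fold (median 2.49), though Cd63 turned lower when arrays were scaled to the spike-in probes. On return 2 were over 4-fold lower (median -1.51). Apoe, a lipoprotein ligand of Trem2, differed by 2.48 and -1.77. Cst7, a cystatin, was not well above background in adherent cells (4.59 units) and gave 109.8 units in non-adherent and 40.7 in re-adherent cells.

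Other scavenger and phagocytic receptors were less uniform. Of 12 genes 10 were measured, and 4 were over 4-fold higher and 1 over 4-fold lower in non-adherent than in adherent cells (median 1.65). Stab2, a hyaluronan and debris receptor of endothelium and some macrophages, gave 11.8 units in adherent, 450.6 in non-adherent and 11.4 in re-adherent cells and, like Lyve1, was well above background in suspension alone. Marco, a receptor for bacteria and particles, differed by 3.17 into suspension and -3.42 on return, and Cd36, a fatty acid translocase, by 2.87 and -2.83. Axl, a receptor tyrosine kinase for dying cells that fibroblasts also express, ran the other way, with 41605, 7638 and 38807 units.

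Cx3cr1 and Fcrls ended highest above their first level. Cx3cr1 (NM_009987, chromosome 9), the fractalkine receptor, was the measured marker with its highest signal after the cells were put back on plastic. Its brighter probe gave 416 units in adherent, 2837 in non-adherent and 8492 in re-adherent cells. The log2 difference was 2.67 ± 0.20 into suspension (6.37-fold), 1.95 ± 0.20 on return (3.85-fold) and 4.62 ± 0.20 over the cycle (24.5-fold). A second probe for the same transcript, with its own spot, gave 38.8, 285 and 936 units and log2 differences of 2.78, 2.08 and 4.86. Both probes thus gave the same order of the 3 states. Cx3cl1, the ligand of Cx3cr1, gave 2289, 3148 and 1044 units, a log2 difference of -0.87 from adherent to re-adherent cells.

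Fcrls (NM_030707, chromosome 3), an Fc receptor-like scavenger protein, gave 374 units in adherent, 16137 in non-adherent and 4478 in re-adherent cells. The log2 difference was 5.33 ± 0.20 into suspension (40.3-fold), -1.49 ± 0.20 on return (2.80-fold lower) and 3.85 ± 0.20 over the cycle (14.4-fold). Fcrls and Cd5l are neighbours on chromosome 3, with 1 non-coding gene, Gm31879, between them in the GRCm38.p6 annotation. Both were highest in suspension, and Cd5l was the lower of the pair relative to its suspension level after return.

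Spi1, which encodes PU.1, a transcription factor of macrophage identity, was highest in suspension like most of the markers, with 72.7, 673 and 152 units. The 250 bases before the start of each marker gene were searched for 2 short motifs on both strands. The letters were GAGGAA, the core of the PU.1 site, and TGCTGA, a part of the site recognised by MAF factors (here partial MAF site). They do not overlap each other in the sequences printed. Sequences came from the RefSeq promoter table of GRCm38.p6, which held 10 sequences for 9 of the 10 markers. The PU.1 core was found in 4 of the 9 markers and the partial MAF site in 4 of the 9. Of the 32851 promoters in the table, 23.3% and 16.1% held them. These shares count sequences while the markers are counted by gene, so they are not in the same unit. Cd5l, Fcrls and Cx3cr1 are printed because they were the markers selected on their pattern. The sequences run 5′ to 3′ along the gene's strand, with both motifs (or their reverse complements TTCCTC and TCAGCA) in capitals. They lie at chr3:87357631-87357880 (plus strand) for Cd5l, chr3:87263525-87263774 (minus strand) for Fcrls and chr9:120068297-120068546 (minus strand) for Cx3cr1.
Cd5l: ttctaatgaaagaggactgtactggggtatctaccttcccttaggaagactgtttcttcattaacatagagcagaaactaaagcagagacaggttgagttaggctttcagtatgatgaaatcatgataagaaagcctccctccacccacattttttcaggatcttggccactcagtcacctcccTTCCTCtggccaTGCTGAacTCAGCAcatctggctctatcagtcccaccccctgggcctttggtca
Fcrls: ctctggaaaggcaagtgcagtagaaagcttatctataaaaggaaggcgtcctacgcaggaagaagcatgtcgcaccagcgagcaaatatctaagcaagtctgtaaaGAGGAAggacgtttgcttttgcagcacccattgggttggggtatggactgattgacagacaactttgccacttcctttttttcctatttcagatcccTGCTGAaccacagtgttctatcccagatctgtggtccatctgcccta
Cx3cr1: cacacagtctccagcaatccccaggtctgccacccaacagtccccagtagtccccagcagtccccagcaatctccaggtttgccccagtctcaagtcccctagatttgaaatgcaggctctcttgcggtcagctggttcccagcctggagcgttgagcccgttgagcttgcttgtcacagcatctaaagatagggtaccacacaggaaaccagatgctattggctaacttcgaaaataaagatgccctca
Cd5l held a PU.1 core from 66 to 61 bases before the start. It also held a pair of partial MAF sites facing each other, from 54 to 49 and from 46 to 41. Fcrls held a PU.1 core from 144 to 139 bases before the start and a partial MAF site from 47 to 42. Neither set of letters was present in the Cx3cr1 window. Mrc1 held 3 PU.1 cores, and Folr2, which has 2 promoter entries, held a partial MAF site in each. A match is a description of letters, not a binding site or a cause.

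**Figure D3:**
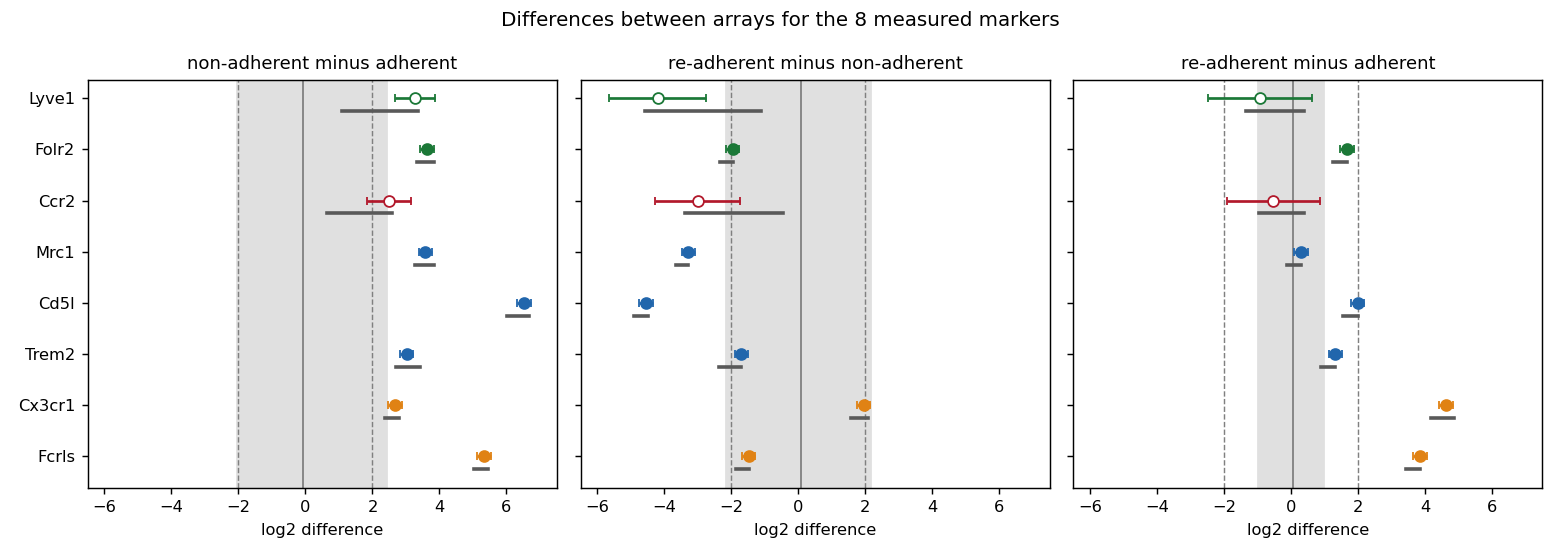
Log2 differences of the 8 measured markers between arrays, with the technical error as bars; open points include a signal not well above background. The dark line under each point spans the values under the other processing settings, the grey band spans the 5th to 95th percentile of all genes, the solid line is their median and dashed lines mark 4-fold; Cx3cr1 is the marker to the right of 0 in the middle panel.

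Other genes known from tissue-adapted macrophages and microglia were set beside this pair. Of 12 on the list 11 were measured, with 8 higher and 3 lower in non-adherent than in adherent cells, 5 of them over 4-fold higher (median 1.79). In re-adherent against adherent cells 2 were over 4-fold higher (median 0.52). P2ry12, an ADP receptor, gave 38.0, 1117 and 192 units, and Gpr34, a lysophosphatidylserine receptor, gave 687 units in non-adherent and 61.8 in re-adherent cells and stayed within background in adherent cells. The probes of Sall1, a factor that defines microglia, were not called well above background in any state. Tmem119, which fibroblasts also express, gave 4543, 2248 and 2557 units.

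The genes of nearest pattern were found by the distance between pairs of log2 differences, non-adherent minus adherent and re-adherent minus adherent, over 13475 genes well above background on all 3 arrays; with 3 arrays such likeness is a description only. No gene lay close to Cx3cr1: the nearest were Tcl1b2 at 1.47 log2 units (differences of 2.14 and 3.24), Gpr84 at 1.62 and 1810014B01Rik at 1.77. For Fcrls they were Abi3bp, a matrix-associated protein, at 0.04 (5.35 and 3.89), P2ry12 at 1.36 and Hpgd at 1.69. For Cd5l they were Cfd, complement factor D of fat cells, at 1.00 (5.54 and 1.83), Fcna at 1.37 and Igfbp5 at 1.75.

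A difference between 2 markers on the same arrays does not move with a scaling by 1 factor per array. In re-adherent against adherent cells, Folr2 exceeded Mrc1 by 1.37 ± 0.29, and Trem2 by 0.35 ± 0.29. The difference of Mrc1 minus that of Cx3cr1 was -4.32 ± 0.29, and that of Cd5l minus that of Fcrls was -1.87 ± 0.29. Cx3cr1 exceeded Fcrls by 0.77 ± 0.29. Of the 15 pairs among the 6 markers measured on all arrays, 12 differed by over 2 technical errors into suspension, 12 on return and 13 over the cycle. Most of these pairs hold a marker that was selected on its pattern. Folr2, Mrc1 and Trem2 were not selected in this way. Into suspension Folr2 minus Mrc1 was 0.05, Folr2 minus Trem2 0.61 and Mrc1 minus Trem2 0.56 (± 0.29 each). Of these, only Folr2 minus Trem2 was over 2 technical errors. On return Folr2 minus Mrc1 was 1.32, Folr2 minus Trem2 -0.26 and Mrc1 minus Trem2 -1.58, so that Mrc1 stood apart from the other two. The spread between samples is not part of these errors.

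The markers were also set against the 16 pan-macrophage genes. Cd5l, Fcrls and Cx3cr1 were selected on their pattern, so their distance from these genes is a description only. Into suspension, Cd5l lay 3.62 and Fcrls 2.43 log2 units above the pan-macrophage median, and Folr2 lay 0.73 and Mrc1 0.68 above it. All 4 lay above 16 of the 16 genes. The highest of the 16, C1qb at 3.44 ± 0.20, lay within the technical error of Folr2 and Mrc1. On return Mrc1 lay -1.62 from the median, above 0 of the 16. Over the cycle, Cx3cr1 lay 3.45 and Fcrls 2.68 above the median, and Mrc1 lay -0.87 from it. Csf1r, the receptor for the growth factors Csf1 and Il34, differed by 2.61 into suspension and by -1.24 on return, while Csf1 gave 95395, 4683 and 80940 units and Il34 1022, 143 and 1456. One pan-macrophage gene, Itgam, differed by -0.84 into suspension on its brightest probe and by 1.63 and 1.96 on its other probes.

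**Figure D4:**
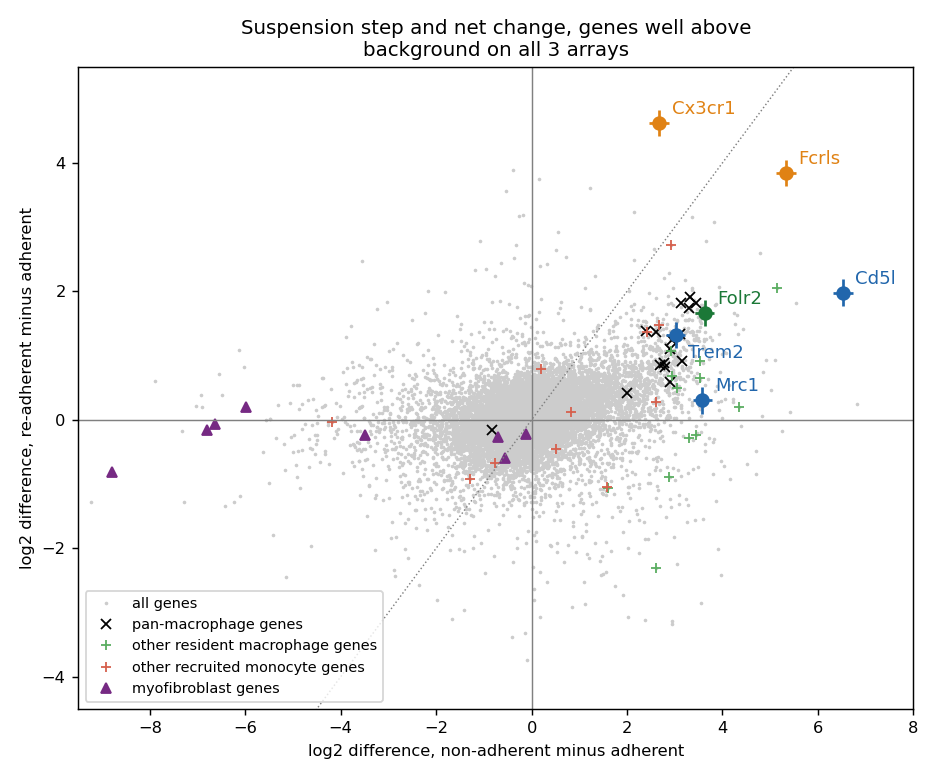
Each point is a gene well above background on all 3 arrays, placed by its log2 difference from adherent to non-adherent cells (horizontal) and from adherent to re-adherent cells (vertical), with the technical error as bars on the 6 markers. On the dotted line suspended and re-adherent cells are equal; Cx3cr1 lies above it, and Folr2 and Trem2 lie near the pan-macrophage genes (crosses).

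Genes of other leukocytes were partly absent and partly mobile. S100a9, Retnlg and Cxcr2 of neutrophils, Flt3, Xcr1 and Cd209a of dendritic cells, Cd3g, Cd8a, Cd79a and Ms4a1 of lymphocytes and Fcer1a of mast cells were not well above background on any array. Of those detected, S100a8 of neutrophils gave 341, 990 and 135 units in adherent, non-adherent and re-adherent cells, and Batf3, a factor of dendritic cells, 171, 855 and 131. Both were highest in suspension, like most of the markers, but other genes of the same lists were not. Csf3r of neutrophils gave 62759, 58569 and 42146 units and Zbtb46 of dendritic cells 93.5, 65.4 and 68.6. Csf3r turned higher in non-adherent than in adherent cells after quantile normalization. Ccr7 of dendritic cells was well above background in non-adherent cells alone, at 18.3 units. The mast cell genes disagreed: Kit gave 65.2 units in adherent and 342 in non-adherent cells, Mcpt4 was well above background in non-adherent cells alone and at least 5.82-fold higher there than in adherent cells, and Cpa3 was measured in re-adherent cells alone, at 170 units, at least 15.6-fold above non-adherent cells. Cd3e and Cd4 of lymphocytes differed by -0.16 and 0.17 into suspension, the second turning negative when arrays were scaled to the spike-in probes. The summed scaled signal was 9695, 8550 and 7811 for neutrophil genes, nearly all of it the probe of Csf3r, 42.9, 135 and 38.3 for dendritic cell genes, 584, 624 and 651 for lymphocyte genes and 38.0, 81.1 and 51.5 for mast cell genes. The part of these cells in the marker signals was not tested.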

How the data were processed

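Per the labels, total RNA was labelled with Cy3 and hybridised to 1-colour Agilent SurePrint G3 mouse arrays. The authors deposited Feature Extraction 10.10.1.1 output with background-subtracted processed signals, an intensity per spot, beside the software's flags and errors, and a series table whose intensity was the processed signal times 1 constant per array (1.52, 1.52 and 1.62; medians 60.8, 61.8 and 50.7), so it was on a linear scale, not centred and of the same direction.

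From these, log2 processed signal minus the log2 75th percentile over non-control spots was computed (Python 3.11.15, numpy 2.4.6, pandas 2.3.3). Non-uniform and outlier spots were left out. Probes were named through RefSeq accessions without version (GRCm38.p6 table; 27235 of 55681 probes had a symbol), and a gene was its brightest probe among those well above background on at least 1 array, which left 15393 genes. Where 1 group of a comparison was not well above background, the fold is a bound against the higher of that array's lowest signal well above background and the probe's own. Such a bound holds for this processing alone. For Lyve1 and Ccr2 normexp correction, whose added offset shrinks differences of dim signals, gave smaller differences. With 1 array per group no test was possible and the number of arrays limits the precision. A difference past 4-fold was counted. The steps were tested on simulated data. The members, gene lists and 13 alternatives were chosen with earlier results of these data known. Named genes were all members, partners, ligands, regulators and defining cell type genes of the lists, and the 3 genes nearest in pattern to Cx3cr1, Fcrls and Cd5l. Normexp (limma 3.58.1, R 4.3.3, offset 50) used the median spot signal, in place of the mean. Promoter sequences are RefSeq's; a planned comparison of protein sequences was not made. Ly6c2, Cd68, Clec7a, Ccl21a and Ly6g had no probe by accession and were not analysed here. Values of some listed genes are not reported here.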

Additional observations from a re-analysis of the deposited data

How the results depend on the processing

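No paired analysis was possible because there was 1 array for each state, which also left no replicate to omit. Of the 24 differences of the 8 measured markers, none of those called changed direction under the alternatives. From adherent to re-adherent cells, where no call was made, Lyve1 ranged from -1.36 to 0.40, Ccr2 from -0.96 to 0.40 and Mrc1 from -0.13 to 0.30.

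The 8 markers over 4-fold higher in non-adherent than in adherent cells became 6 with normexp correction, 6 when genes had to be well above background on all 3 arrays (Lyve1 and Ccr2 then drop out) and 7 with dim signals raised to the detection floor. The markers over 4-fold lower in re-adherent than in non-adherent cells numbered 4, but 2 with normexp correction, 2 with detection on all 3 arrays, 3 with the floor, 5 with spike-in scaling, 5 in the deposited table, 6 without scaling, 6 with quantile normalization and 7 past 2-fold. Those over 4-fold higher in this comparison numbered 0, but 1 with the mean over probes, 1 with the dimmest probe and 1 past 2-fold, in each case Cx3cr1. Those over 4-fold higher in re-adherent than in adherent cells numbered 2, and 5 past 2-fold.

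Scaling to the spike-in probes set the median of all genes at -0.37 in non-adherent and -0.37 in re-adherent against adherent cells, and no scaling set it at -0.28 between re-adherent and non-adherent cells. Raising dim signals to the detection floor or normexp correction moved Lyve1 and Ccr2 most: into suspension Lyve1 ranged from 1.09 to 3.37 and Ccr2 from 0.64 to 2.58. Their dim signals limit every statement on them.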

Other observations

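The 3 markers not selected on their pattern and measured on all arrays had close neighbours in pattern over the same 13475 genes. Trem2 lay 0.02 log2 units from Cyp4f18, 0.04 from Pik3ap1, an adaptor of PI3 kinase signalling in leukocytes, and 0.07 from Itgax, the integrin CD11c. Mrc1 lay 0.00806 from Vmn1r48, a vomeronasal receptor gene, and 0.09 from Npl, and Folr2 lay 0.13 from Smagp. These genes were named after their values were seen.

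Of the 8 myofibroblast genes, the contractile genes Acta2, Tagln, Cnn1 and Myl9 and the surface gene Thy1 ran opposite to most markers, so that 5 were over 4-fold lower in non-adherent than in adherent cells (median -4.74) and 5 were over 4-fold higher on return (median 4.72; both medians are over all 8). Postn differed by -0.12 into suspension and -0.09 on return, Pdgfra by -0.55 and -0.05, and Col1a1 by -0.70 and 0.44, the last turning negative after quantile normalization. Around the marker spots, the median difference of neighbouring spots within 5 rows and columns ranged from -0.45 to 0.15 into suspension, from -0.29 to 0.32 on return and from -0.11 to 0.21 over the cycle.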
